A study of Mus musculus with 6 samples.

Results

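Skeletal muscle fibres contract at different speeds because they assemble their sarcomeres from different isoforms of the same proteins. Fast fibres build thick filaments from the fast myosin heavy chains, which are the motor proteins, and from fast myosin light chains, and they switch their thin filaments on and off with the fast isoforms of the 3 troponin subunits. Alpha-actinin 3 anchors the thin filaments of fast fibres at the Z-disc, and parvalbumin, a soluble calcium buffer, speeds relaxation. The members are 10 genes of this apparatus: Myh1, Myh2 and Myh4 (the heavy chains of type IIx, IIa and IIb fibres), Myl1 and Mylpf (the fast essential and regulatory light chains), Tnnt3, Tnni2 and Tnnc2 (fast troponin T, I and C), Actn3 and Pvalb.

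Accessibility at these genes was read from an ATAC-seq table, which counts Tn5 transposition events per accessible interval. An interval was assigned to a gene when it overlapped the gene body or lay within 10 kb of an annotated transcription start site (TSS) of GENCODE vM1 on the mm9 genome. This gave 28 of the 39768 intervals, which fall into 22 groups that do not overlap each other, for 9 of the 10 genes. Myh2 had no interval. The table holds fewer intervals than the methods state for this peak model, and how those of the table were chosen is not given in the sources used here, so the absence of an interval refers to this table only. Tnni2 had 7, Tnnc2 had 5, Tnnt3 and Mylpf had 4 each, Actn3 had 3, Pvalb had 2, and Myh1, Myh4 and Myl1 had 1 each.

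The nuclei came from muscles of C57BL/6 mice aged 7 weeks, and each library was made from 50000 nuclei. All mice carried floxed alleles of both genes of the histone variant H2A.Z (H2A.Z-1 flox/flox and H2A.Z-2 flox/flox). The 3 CTL libraries, titled WT in the labels, came from mice without Cre and the 3 H2A.Z dKO libraries from mice with the HSA-Cre transgene, which recombines in post-mitotic muscle fibres. Nuclei of other cells of the muscle keep H2A.Z, and the sources name no step that removes them. The labels name tibialis anterior muscle and purification by ultracentrifugation, whereas the methods describe hind limb muscles and a Dounce homogenizer. The sources do not say whether each library came from a different mouse, so p-values measure the spread between these libraries, which may be partly technical.

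The libraries held 3520008 to 6117245 counts in the intervals. By the 10 kb rule, all 8 muscle fibre marker genes had an interval, as did all 7 endothelial and 5 of 7 fibroblast markers. So did 3 of 6 macrophage, 3 of 5 satellite cell, 3 of 5 smooth muscle and pericyte, and 1 of 4 Schwann cell markers. By this rule 60.3% of protein-coding genes had an interval. Within 1 kb of a TSS of the marker gene, 8 muscle fibre, 5 endothelial and 5 fibroblast genes had one. There were 3 for smooth muscle and pericytes, 1 for satellite cells, 1 for Schwann cells and 0 for macrophages, against 49.1% of protein-coding genes. The 2 intervals between exons 2 and 4 of H2afz, the segment that Cre removes from the H2A.Z-1 gene, had mean CPM (counts per 1000000 counts in intervals) of 12.4 ± 2.83 in CTL and 11.3 ± 1.28 in H2A.Z dKO (SD, n = 3 each), so the group of a library rests on its label. Summed over the marker list, muscle fibre intervals ranged from 649.9 CPM in CTL replicate 2 to 891 in H2A.Z dKO replicate 2, and CTL replicate 2 also had the highest sum of endothelial intervals. Fewer fibre nuclei and less accessible chromatin per nucleus cannot be told apart in such bulk libraries.

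The start sites of the 3 fast myosin genes, which lie side by side on chromosome 11, had different coverage by intervals, so their promoter sequences are shown first. Each run holds the 100 bases before the start site of the RefSeq promoter table (GRCm38.p6), located in mm9 by sequence match and read 5′ to 3′ on the coding strand. Mylpf is added because it had no interval at its own start either. Capitals mark matches on either strand to TATAAA, to the E-box CANNTG (a site of MyoD family factors), to the MCAT motif CATTCC (a site of TEAD factors), or to MEF2 or CArG sites. Matches did not overlap in these sequences.
Myh2, chr11:66984429-66984528, plus strand: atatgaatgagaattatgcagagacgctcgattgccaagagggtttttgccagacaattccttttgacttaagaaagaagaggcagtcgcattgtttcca
Myh1, chr11:67013504-67013603, plus strand: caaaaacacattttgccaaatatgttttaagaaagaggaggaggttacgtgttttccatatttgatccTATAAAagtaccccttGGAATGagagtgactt
Myh4, chr11:67051214-67051313, plus strand: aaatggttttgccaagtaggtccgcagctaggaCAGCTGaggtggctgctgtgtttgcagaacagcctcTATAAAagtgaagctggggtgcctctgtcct
Mylpf, chr7:134355022-134355121, plus strand: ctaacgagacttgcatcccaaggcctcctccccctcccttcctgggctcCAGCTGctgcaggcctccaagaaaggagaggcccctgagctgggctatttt

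The Myh1 and Myh4 windows each held TATAAA, starting 32 and 31 bases before the start site, and the Myh2 window held none of the motifs searched. TATAAA occurred in 5.56% of all 32851 windows of 100 bases in the table, the E-box in 34.4%, MCAT in 4.71%, MEF2 in 0.992% and CArG in 0.615%. The table held 7 of the 10 genes, with 8 windows. In these 100 bases 3 had TATAAA, 3 an E-box, 2 MCAT and 0 a MEF2 or CArG match. Over the 250 bases before the start, 3 of the 8 (Myh1, Myh4 and Pvalb) had a MEF2 match, against 2.92% of all windows. Over the same length 1 had CArG (1.47%), 3 TATAAA (12.4%), 3 MCAT (12.6%) and 5 an E-box (66.2%). A match is a description of the letters and not evidence of a bound factor.

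Intervals that lie at or inside 3 of the genes are shown for their position relative to these starts. Myl1 has a pair of alternative start regions, an upstream one for light chain MLC1f and an internal one for MLC3f, and its single interval, Peak_648, lies 154.5 bp upstream of an internal start. It is printed on the minus strand, on which the gene is read, with a MEF2 match in capitals. Peak_32326 lies upstream of Pvalb and Peak_24758 is the interval in an intron of Myh1, and both are free of the motifs searched.
Peak_648 (Myl1), chr1:66982002-66982163, minus strand: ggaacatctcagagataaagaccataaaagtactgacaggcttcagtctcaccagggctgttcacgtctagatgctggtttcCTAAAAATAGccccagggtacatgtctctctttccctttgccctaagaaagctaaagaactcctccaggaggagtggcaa
Peak_32326 (Pvalb), chr15:78036932-78036974, minus strand: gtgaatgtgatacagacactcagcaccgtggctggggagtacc
Peak_24758 (Myh1), chr11:67018390-67018424, plus strand: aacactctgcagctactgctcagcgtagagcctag
A MEF2 match was present in 2.52% of windows of 162 bp centred on the 39768 intervals.

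**Figure D1:**
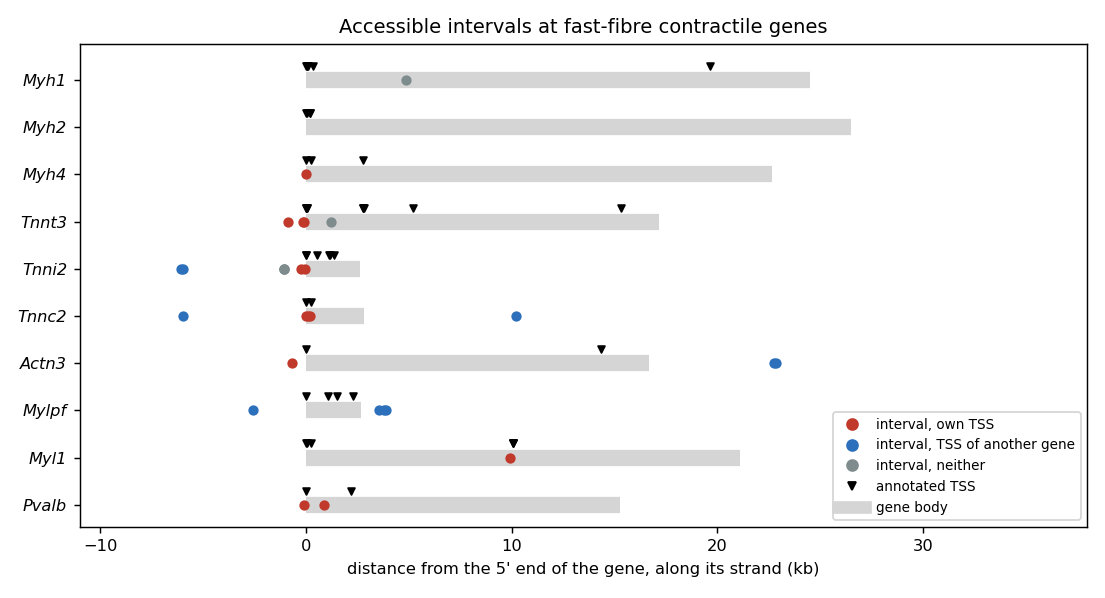
Positions of the 28 intervals (points, at their midpoints) at the 10 genes, as distance in kb from the 5′ end of the gene along its strand. Grey bars are gene bodies, triangles annotated TSSs, and colours mark intervals within 1 kb of a TSS of the member gene, of another gene, or of neither. Myh2 has no point, and the points of Mylpf all belong to TSSs of other genes.

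The 28 intervals were first sorted by the start site they lie at. An own-TSS interval was one whose midpoint lay within 1 kb of an annotated TSS of the member gene itself. There were 13 of these, in 10 groups, for 7 genes (Myh4, Tnnt3, Tnni2, Tnnc2, Actn3, Myl1 and Pvalb). Myh1, Myh2 and Mylpf had none, and the nearest interval to any of their TSSs lay 4501, 17644 and 1273 bp away. Among the 22367 protein-coding genes, 49.1% had an interval within 1 kb of a TSS and 60.3% had one by the wider rule. Another 10 intervals lay within 1 kb of a TSS of a neighbouring gene and beyond 1 kb from the member's own: Syt8 upstream of Tnni2, Ube2c and Snx21 on either side of Tnnc2, Ctsf inside the 10 kb window of Actn3, and Tbc1d10b and Sept1 around Mylpf. The last 5 lay at no TSS, namely 3 overlapping intervals centred 1050.5 to 1056.5 bp upstream of Tnni2, one in an intron of Tnnt3 and one in an intron of Myh1.

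Levels are given below as RPKM, the CPM of an interval per kb of its width. The RPKM of the members ranged from 92.3 to 341 as means over the 6 libraries, with a median of 175, against a median of 116 over all intervals of the table. A total of 22 of the 28 were above that median, as were 11 of the 13 own-TSS intervals. By CPM, which is not divided by width, 15 of the 28 were above the median of the table. The methods extended each fragment end before counting, which can add ends from outside an interval and so raise the RPKM of narrow intervals, an effect that was not measured here. Their widths ran from 17 to 700 bp, and the median width was 110 bp against 137 bp for all intervals. Their share of G and C had a median of 59.0%, against 59.8%.

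**Figure D2:**
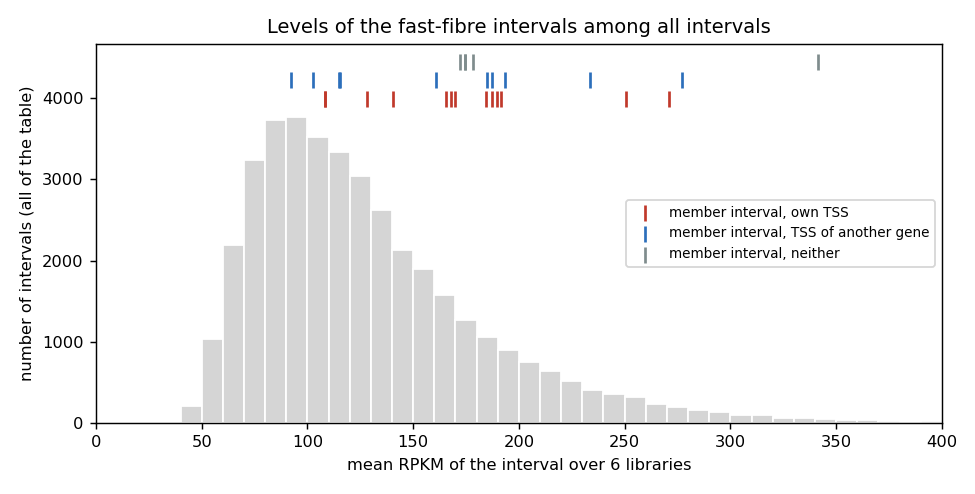
Histogram of the mean RPKM over 6 libraries of all intervals of the table up to 400 RPKM (72 lie above), with the 28 members as ticks above it. The own-TSS intervals (lowest row of ticks) run from 108 to 271 RPKM, and the highest tick, at 341, is the intronic interval of Tnnt3.

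The own-TSS intervals of several genes were narrow and held few counts. The mean RPKM of Peak_648 of Myl1 and of Peak_32325 of Pvalb, at 108 each, were the 2 of the 13 below the median of the table, and the median over the top promoter intervals of protein-coding genes was 151. Per gene, the own-TSS interval with the most counts held 3.14 CPM at Myh4, 7.26 at Pvalb, 17.5 at Myl1, 39.4 at Tnnc2, 40.7 at Tnnt3, 45.1 at Tnni2 and 70.7 at Actn3. Among the 10980 protein-coding genes with such an interval, the median was 42.2 CPM and the median width of the widest was 302 bp. Myh4, Pvalb and Myl1 stood at the 0.765th, 4.59th and 16.5th percentile of these genes, Tnnc2, Tnnt3 and Tnni2 at the 46.6th to 53.2nd, and Actn3 at the 73.3rd. The rank of Actn3 rests on Peak_37836 alone, which lies closer to a TSS of Zdhhc24. The order of neighbours was not separated beyond the spread between libraries for Tnnc2, Tnnt3 and Tnni2, whose CTL values were 36.8 ± 2.21, 41.7 ± 5.59 and 47.3 ± 7.21 CPM (SD, n = 3).

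The question put to these genes was whether loss of H2A.Z, a variant of histone H2A found in the nucleosomes around start sites of active genes, changed accessibility at the contractile genes that define fast fibres. No difference was detected. By the quasi-likelihood test of edgeR, with p-values adjusted over all intervals after Benjamini and Hochberg, none of the 28 intervals passed an adjusted p of 0.05, as was the case over the whole table (0 of 39768, or 0.0%), and the smallest adjusted p of a member was 0.972. At an unadjusted p under 0.05 there was 1 member, which lies at the TSS of Ctsf, against 4.95% of all intervals (2.64% with higher and 2.31% with lower values in H2A.Z dKO), and DESeq2 also gave 0 and 1. Log2 fold changes of H2A.Z dKO over CTL were positive in 13 and negative in 15, against 52.5% positive over the table, with a median of -0.063 against 0.012. The libraries of the groups did not overlap in 2 intervals with higher values in H2A.Z dKO (background 5.22%) and in 4 with lower values (background 5.63%).

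The size of change that these counts leave possible was read from the 95% confidence intervals. They lay within a 2-fold change in either direction for 27 of the 28 intervals (91.4% of the table) and within a 1.5-fold change for 11 (49.6%). For the other members, a change of 1.5-fold or more lay within the interval. With single libraries left out, the log2 fold change of 23 of the 28 moved by over 1.5 times in at least 1 case, and the 5 that did not were Peak_17048, Peak_17051, Peak_17038, Peak_5004 and Peak_37835. A minimum of 20 counts in every library was reached by 24 of the 28.

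**Figure D3:**
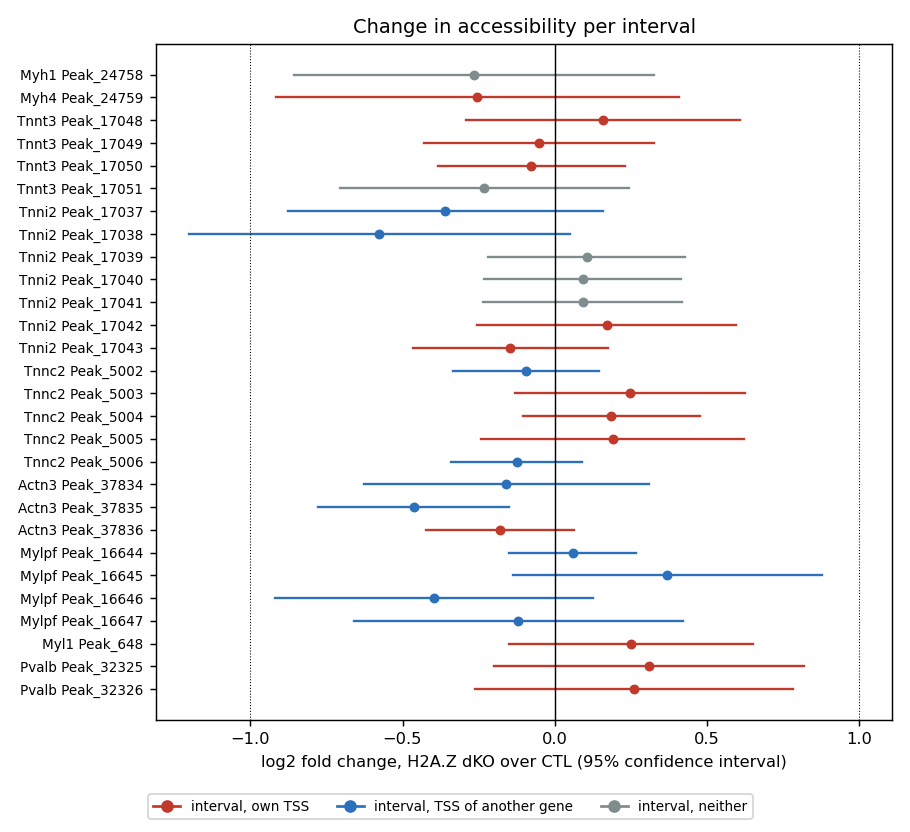
Log2 fold change of H2A.Z dKO over CTL (points) with its 95% confidence interval (lines) for each of the 28 intervals, by gene. Dotted lines mark a 2-fold change. All lines but those of Peak_37835 cross 0, and only that of Peak_17038 passes a dotted line.

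Of the fast myosin heavy chains, Myh4 encodes the IIb isoform, the fastest of the 3, and was the only member of this trio with an interval at its start. Peak_24759 (chr11:67051305-67051321, 17 bp) spans the TSS and the first bases of the 5′ UTR, with a TSS of Gm12300 lying 238 bp away. It held 25, 12 and 12 counts in CTL replicates 1, 2 and 3, or 241, 153 and 200 RPKM. In H2A.Z dKO replicates 1, 2 and 3 it held 10, 16 and 18 counts, or 103, 204 and 208 RPKM. Replicate 1 was thus the highest of CTL and the lowest of H2A.Z dKO, and the groups overlapped. The log2 fold change was -0.25 (SE 0.32, 95% confidence interval -0.92 to 0.41).

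Myh1, the IIx heavy chain, had only the 35 bp of Peak_24758 in an intron, 4.5 kb downstream of the nearest TSS. Its RPKM were 215, 117 and 251 in CTL and 125, 216 and 146 in H2A.Z dKO. The CTL libraries spanned the whole range, and the log2 fold change was -0.26 (SE 0.28), but -0.084 without CTL replicate 3 and -0.52 without CTL replicate 2. Myh2, the IIa heavy chain, had no interval from its 5′ end through its body, which is 26.5 kb long, and none within 10 kb of a TSS. The table lists only called intervals, so a gene without one may still have had fragment ends, which were not analysed here.

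The light chains also differed in where they were accessible. Peak_648 at the internal start of Myl1 had 98.1, 108 and 89.2 RPKM in CTL and 96.4, 127 and 131 in H2A.Z dKO. Replicates 2 and 3 of H2A.Z dKO were above all CTL libraries and replicate 1 lay among them. The log2 fold change was 0.25 (SE 0.19, 95% confidence interval -0.15 to 0.65), and no interval lay at the upstream MLC1f start. Mylpf, the regulatory light chain, had Peak_16644 (chr7:134352212-134352911, 700 bp), 2560.5 bp upstream of its start and 579 bp from a TSS of Tbc1d10b. This was the member with the most counts, at 265, 291 and 258 RPKM in CTL and 312, 284 and 253 in H2A.Z dKO. These values overlapped, and the log2 fold change was 0.06 (SE 0.10), with a 95% confidence interval of -0.15 to 0.27.

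The other 3 intervals of Mylpf lie beyond its 3′ end, at the TSS of Sept1, which encodes a septin of the cytoskeleton. Peak_16645 was the interval nearest to any annotated Mylpf TSS, at 69.7, 106 and 66.9 RPKM in CTL and 140, 86.9 and 84.9 in H2A.Z dKO. The log2 fold change of 0.37 (SE 0.24) was the most positive of the 28, but it was 0.088 without H2A.Z dKO replicate 1 and 0.61 without CTL replicate 2, and CTL replicate 2 lay inside the range of the other group. Peak_16646, also at Sept1, had 202, 202 and 227 RPKM in CTL and 123, 188 and 170 in H2A.Z dKO. These groups did not overlap, with a log2 fold change of -0.40 (SE 0.25) in the opposite direction to its neighbour, and Peak_16647 stood at -0.12 (SE 0.26).

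The troponin complex makes the thin filament sensitive to calcium: troponin T binds tropomyosin, troponin I inhibits the actomyosin ATPase and troponin C binds the calcium ion. The genes of all 3 fast subunits had intervals at their own TSS. Tnnt3 and Tnni2 are near neighbours on chromosome 7, whereas Tnnc2 is on chromosome 2.

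At Tnnt3, Peak_17050 (chr7:149684544-149684760) covers the TSS and also lies in an intron of Gm14492. It had 207, 163 and 208 RPKM in CTL and 162, 197 and 189 in H2A.Z dKO. The groups overlapped, with CTL replicate 2 and H2A.Z dKO replicate 1 the lowest, and the log2 fold change was -0.08 (SE 0.15). The other upstream intervals, Peak_17048 and Peak_17049, had log2 fold changes of 0.16 (SE 0.22) and -0.05 (SE 0.18). The intronic Peak_17051 (chr7:149685941-149685959, 19 bp) was the member with the highest RPKM, at the 99.4th percentile of the table. Its values were 379, 353 and 373 RPKM in CTL and 314, 319 and 310 in H2A.Z dKO, from 25 to 44 counts per library. All CTL libraries lay above all H2A.Z dKO libraries, with a log2 fold change of -0.23 (SE 0.23, adjusted p = 0.982 from edgeR).

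At Tnni2, Peak_17043 (chr7:149627541-149627778) covers the TSS. It had 222, 165 and 209 RPKM in CTL and 152, 216 and 173 in H2A.Z dKO, again with CTL replicate 2 and H2A.Z dKO replicate 1 lowest. The log2 fold change was -0.15 (SE 0.15), but -0.037 without H2A.Z dKO replicate 1 and -0.29 without H2A.Z dKO replicate 2. Peak_17042, centred 241.5 bp upstream, had a log2 fold change of 0.17 (SE 0.21), and the 3 overlapping intervals farther upstream had 0.09 to 0.11. The remaining pair of intervals lies 6 kb upstream in an intron of Syt8, a synaptotagmin gene. Peak_17038 there, 19 bp wide, had 172, 171 and 238 RPKM in CTL and 102, 148 and 134 in H2A.Z dKO, from 11 to 20 counts per library. The groups did not overlap, and the log2 fold change was -0.58 (SE 0.30, 95% confidence interval -1.20 to 0.05, adjusted p = 0.972 from edgeR). The neighbouring Peak_17037 stood at -0.36 (SE 0.25), with overlapping groups.

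At Tnnc2, 3 intervals lie around its pair of annotated TSSs. Peak_5004 overlaps both Peak_5003 and Peak_5005, which do not overlap each other, so fragment ends in these overlaps add to Peak_5004 as well as to the other interval. Peak_5005, the nearest to a TSS, had 159, 168 and 135 RPKM in CTL and 178, 171 and 181 in H2A.Z dKO. Peak_5004 (chr2:164605217-164605496), the widest at 280 bp, had 128, 126 and 141 RPKM in CTL and 141, 158 and 150 in H2A.Z dKO. In both, every H2A.Z dKO library was above every CTL library, and these are the only 2 such members. At Peak_5004 this rests on 140.6 RPKM in CTL replicate 3 against 141.0 in H2A.Z dKO replicate 1. That gap is smaller than the effect of the scaling factors of these libraries (1.003 and 0.971). Peak_5003 had 155, 129 and 182 RPKM in CTL and 178, 207 and 167 in H2A.Z dKO, where the groups overlapped. The log2 fold changes of Peak_5003, Peak_5004 and Peak_5005 were 0.25 (SE 0.18), 0.19 (SE 0.14) and 0.19 (SE 0.21), each with an adjusted p of 0.972 to 0.985 (edgeR). Peak_5002, at the TSS of Ube2c, an enzyme of the ubiquitin pathway in mitosis, had 252, 231 and 241 RPKM in CTL and 196, 246 and 237 in H2A.Z dKO. The log2 fold change there was -0.09 (SE 0.12), and that of Peak_5006, at the TSS of Snx21, was -0.12 (SE 0.10).

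At Actn3, the own-TSS interval Peak_37836 (chr19:4878393-4878761) is centred 668 bp upstream of its start but 91 bp from a TSS of Zdhhc24, which encodes a palmitoyltransferase, so its counts cannot be assigned to either gene. It had 227, 201 and 183 RPKM in CTL and 180, 171 and 189 in H2A.Z dKO, with a log2 fold change of -0.18 (SE 0.12, 95% confidence interval -0.42 to 0.06). The single member with an unadjusted p under 0.05, Peak_37835 (chr19:4855022-4855323), lies 8.4 kb downstream of the nearest Actn3 TSS and 43 bp from a TSS of Ctsf, the gene of the lysosomal protease cathepsin F. It had 145, 117 and 138 RPKM in CTL and 94.1, 103 and 92.9 in H2A.Z dKO. The groups did not overlap, with a log2 fold change of -0.46 (SE 0.15, 95% confidence interval -0.78 to -0.15, adjusted p = 0.972 from edgeR). Peak_37834, also at Ctsf, stood at -0.16 (SE 0.22).

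At Pvalb, Peak_32326, 123 bp upstream of the TSS, had 122, 90.6 and 138 RPKM in CTL and 126, 156 and 137 in H2A.Z dKO. Peak_32325, 852 bp downstream of the TSS in an intron, had 90.5, 90.4 and 110 RPKM in CTL and 102, 155 and 102 in H2A.Z dKO. In both, H2A.Z dKO replicate 2 was the highest of all libraries and the groups overlapped. The log2 fold changes were 0.26 (SE 0.25) and 0.31 (SE 0.25), from 18 to 48 counts per library. That of Peak_32326 was 0.11 without CTL replicate 2, and that of Peak_32325 was 0.093 without H2A.Z dKO replicate 2.

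**Figure D4:**
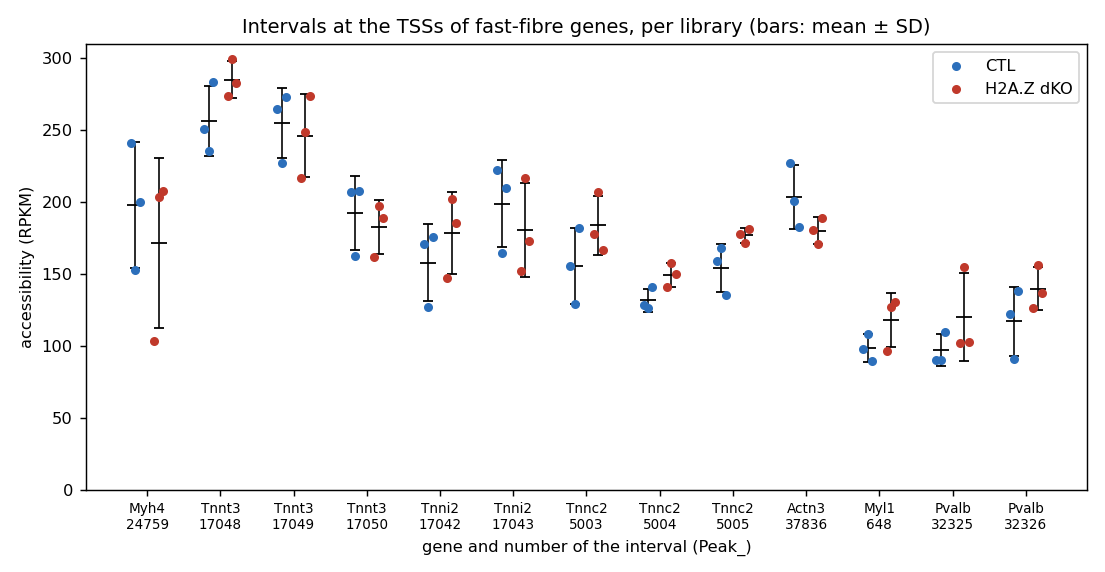
RPKM of the 13 own-TSS intervals in each library (points, replicates 1 to 3 from left to right within a group), with the mean and SD of the 3 libraries of each group (black). CTL and H2A.Z dKO points overlap in every interval except Peak_5004 and Peak_5005 of Tnnc2. In Peak_5004 the points of CTL replicate 3 and H2A.Z dKO replicate 1 nearly coincide.

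The same libraries tended to be low at these promoters. CTL replicate 2 was the lowest CTL library in 10 of the 13 own-TSS intervals, and H2A.Z dKO replicate 1 was the lowest of its group in 10. Summed over the 13, the levels were 326, 280 and 314 CPM in CTL and 283, 331 and 315 in H2A.Z dKO. The summed muscle fibre markers were 835, 649.9 and 843 CPM in CTL and 733, 891 and 830.3 in H2A.Z dKO, and so had the same lowest library in each group. Whether the share of fibre nuclei had a part in these values was not tested.

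Over the 13 own-TSS intervals the means were 307 ± 23.5 CPM in CTL and 309 ± 24.3 in H2A.Z dKO (SD, n = 3), of which Peak_37836, shared with Zdhhc24, held 75.04 and 66.4 CPM. This was a log2 difference of 0.012 (p = 0.7, two-sided exact permutation test, whose smallest p with 3 libraries per group is 0.1). The median log2 fold change of these 13 was 0.17, with 8 positive. That of the 10 intervals at TSSs of neighbouring genes was -0.14, with 2 positive. Over the table the median was 0.012, with 52.5% positive. The 13 fall into 10 groups that do not overlap, and the 8 include Peak_5003, Peak_5004 and Peak_5005 of Tnnc2. Of that trio, Peak_5004 overlaps both others, so the signs are not independent. Over all 28 intervals the means were 889 ± 22.7 CPM in CTL and 875 ± 37.9 in H2A.Z dKO (SD, n = 3). This was a log2 difference of -0.023 (exact permutation test, two-sided p = 0.6). Both differences were smaller than the spread between libraries, and each changed sign under other choices given in the closing section. The 10 intervals at TSSs of neighbouring genes held more than the genes' own, at 476 ± 9.98 CPM in CTL and 455 ± 19.7 in H2A.Z dKO (SD, n = 3).

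The slow-fibre counterparts served as the nearest comparison. These 10 genes (Myh7, Tnnt1, Tnni1, Tnnc1, Myl2, Myl3, Myl6b, Tpm3, Atp2a2 and Pln) encode the slow isoforms of the same filaments, with the calcium pump of slow fibres and its inhibitor phospholamban. By the same rule 8 of them had an interval, with 30 intervals in all, and Myh7 and Myl2, the slow heavy and regulatory light chains, had none. An own-TSS interval was present in 4, against 7 of the fast genes. The median RPKM was 129 over the slow and 175 over the fast intervals, and the median log2 fold change was 0.03 against -0.06. None was called at an adjusted p under 0.05 (edgeR), and of the 30, 1 higher and 1 lower had an unadjusted p under 0.05 (backgrounds 2.64% and 2.31%).

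Within each library, the log2 ratio of the summed fast to the summed slow intervals was 0.58, 0.35 and 0.49 in CTL and 0.41, 0.51 and 0.39 in H2A.Z dKO. It was above 0 in all 6 libraries, and the groups overlapped. In CTL, 476 of the 889 CPM of the fast intervals came from those at TSSs of neighbouring genes. The sign of the ratio thus also depends on which neighbours a list takes in, and does not rank fast against slow genes. The difference between groups was -0.034 (exact permutation test, two-sided p = 0.7), with means of 0.47 ± 0.12 in CTL and 0.44 ± 0.064 in H2A.Z dKO (SD, n = 3). The sign turned with a window of 2 kb (0.027), over own-TSS intervals of both lists (0.051) and without CTL replicate 1 (0.018). In this measure too, CTL replicate 2 was the lowest CTL library.

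Other genes of fast, glycolytic fibres gave a further comparison. All 10 (Atp2a1, the fast calcium pump, with Casq1, Mybpc2, Myoz1, Mylk2, Ckm, Eno3, Pgam2, Pygm and Cacng1) had an interval and 8 had an own-TSS interval. Of their 52 intervals 38 had a positive log2 fold change (52.5% over the table), with a median of 0.09 against 0.012. At an adjusted p under 0.05 (edgeR) 0 were called, and 1 was higher at an unadjusted p under 0.05 (background 2.64%). Some of the 52 lie on top of each other, so their signs are not independent. For example, Peak_2058 and Peak_2059 of Casq1 are centred 7664.5 and 7662.5 bp from a TSS. Of 6 other sarcomeric myosin heavy chain genes (Myh3, Myh8, Myh13, Myh6, Myh7 and Myh7b), 5 had no interval. The exception was Myh13, the extraocular isoform, with a single interval at 113 ± 29.2 RPKM in CTL and 89.2 ± 24 in H2A.Z dKO (SD, n = 3). Of the 9 sarcomeric heavy chain genes examined, fast and other, Myh4 was thus the only one with an own-TSS interval.

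**Figure D5:**
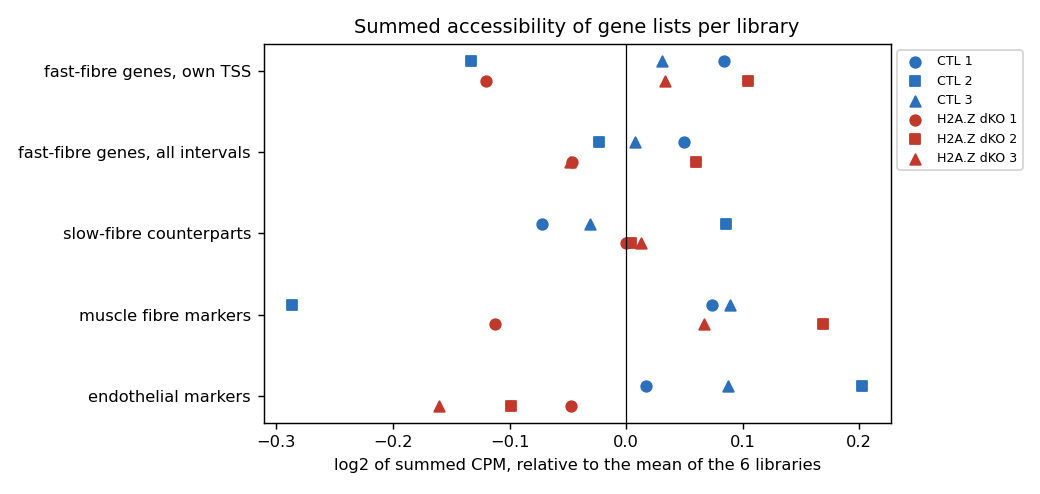
Log2 of the summed CPM of each list of genes in each library, relative to the mean of the 6 libraries (blue, CTL; red, H2A.Z dKO; symbols, replicates 1 to 3). The groups overlap in the fast and slow lists and in muscle fibre markers, and do not overlap in endothelial markers, where CTL replicate 2 is highest. Other marker lists are not drawn.

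A column of the authors' table lists each interval for both groups or for 1 of them only. Of the 28 members, 13 were listed for both groups, 7 in the H2A.Z dKO set alone and 8 in the CTL set alone, against 38.7%, 43.4% and 17.9% of all intervals. Among the own-TSS intervals these numbers were 4, 4 and 5. Some intervals listed for 1 group only overlap an interval listed only for the other. Peak_17049 (H2A.Z dKO set) overlaps Peak_17050 (CTL set), and Peak_5004 (H2A.Z dKO set) overlaps Peak_5003 and Peak_5005 (CTL set). Such a listing can thus mark different boundaries of the same region. The median log2 fold change of the members was 0.17 in those listed in the H2A.Z dKO set alone and -0.17 in those of the CTL set alone, against 0.11 and -0.13 over the table. The sets were called on these same libraries, so these signs are not independent of how the sets were made.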

How the data were processed

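The deposited table gives, for 6 ATAC-seq libraries, the count of fragment ends per interval. Per the study's methods and the submitters' processing notes, the authors trimmed reads with Trimmomatic, aligned them to mm9 with Bowtie2 (Bowtie in the methods), removed duplicates with Picard, shifted fragment ends for the Tn5 binding event, called peaks with MACS2 under a wide model and merged those shared by the replicates of a group. The deposited counts are not normalized, and 0 columns of per-sample values were left unused. The authors also deposited, from DESeq2, fold changes and p-values, which were not used. RNA-seq, ChIP-seq and peaks of the narrow model were not analysed here.

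All 39768 intervals were fitted with edgeR 4.0.16 in R 4.3.3 (quasi-likelihood test in its robust form without a replicate block, TMM factors between 0.971 and 1.02, biological coefficient of variation 0.126) and p-values were adjusted over all of them. CPM use the TMM-scaled sum of counts in the intervals. The libraries' totals ranged from 3520008 to 6117245 counts, and the errors reflect counting and the variation among 3 libraries per group. Single values per library were compared with exact permutation tests (10 splits) in Python 3.11.15 with pandas 2.3.3 and SciPy 1.17.1. Genes and TSSs came from GENCODE vM1 and promoter sequences from RefSeq (GRCm38.p6). The fit was tested on simulated counts. At an adjusted p under 0.05 it recovered 69% of the simulated 2-fold changes and 10% of the 1.5-fold changes. Of its 86 calls, 7 were false.

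The list of fibre type regulators is not reported here. Members, lists and tests were chosen with earlier results of these data known. Values per library are given by rule for the interval of each gene nearest to a TSS, for that with the highest RPKM, and for the 2 with the lowest p in either direction. Other intervals shown per library (Peak_5004, Peak_16646, Peak_32325) were chosen after their values were seen. Alternatives were DESeq2 1.42.0, limma 3.58.1 (voom), other scalings, filters, thresholds and windows, a replicate block, overlapping or neighbouring intervals left out, means of log2(CPM + 0.5), and each library left out in turn.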

Additional observations from a re-analysis of the deposited data

How the results depend on the processing

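The count of 0 member intervals at an adjusted p under 0.05 was also found in all alternatives run, including DESeq2, limma voom and an adjusted p under 0.1, and the smallest adjusted p of any refitted interval was 0.43. The count of 1 at an unadjusted p under 0.05 became 0 with a window of 2 kb and 0 without the 13 intervals within 1 kb of a TSS of another gene (3 of them own-TSS intervals), since Peak_37835 is then left out. It ran from 1 to 3 with single libraries left out (2 without CTL replicate 2, 3 without H2A.Z dKO replicate 1, 2 without H2A.Z dKO replicate 3). The log2 difference of the summed level turned to 0.024 with a window of 2 kb and to 0.063 without those 13 intervals, and ran from -0.059 to -0.0038 with single libraries left out. With only the widest of overlapping intervals kept it was -0.042 (exact permutation test, two-sided p = 0.3). For the own-TSS intervals it was 0.082 as a mean of log2(CPM + 0.5) and 0.057 with a window of 500 bp, and with single libraries left out it ran from -0.051 (without CTL replicate 2) to 0.075, with -0.037 without H2A.Z dKO replicate 2 and -0.0012 without H2A.Z dKO replicate 3. The fast minus slow difference turned to 0.027 with a window of 2 kb and to 0.051 over own-TSS intervals, and ran from -0.097 to 0.018 (without CTL replicate 1). The cause of these reversals was not tested.

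Of 373 alternative values of single intervals, 364 kept their direction. With single libraries left out, log2 fold changes ran from -0.44 to 0.028 for Peak_24759, from -0.15 to 0.038 for Peak_17049, from -0.18 to 0.0060 for Peak_17050, from -0.16 to 0.00079 for Peak_5002, from -0.019 to 0.12 for Peak_16644 and from -0.44 to 0.046 for Peak_16647, each with the sign reversed only without H2A.Z dKO replicate 1. They ran from -0.012 to 0.18, -0.021 to 0.17 and -0.015 to 0.16 for Peak_17039, Peak_17040 and Peak_17041, reversed only without H2A.Z dKO replicate 2. Same-numbered libraries did not deviate together (correlations of -0.095, -0.051 and -0.030), so the numbers were not taken as pairs. With the replicate block there were 0 adjusted calls and 1 unadjusted, and the differences were -0.023, 0.012 and -0.034 (exact permutation within pairs, smallest possible p 0.25). At this depth, a 1.5-fold change in either direction lay outside the 95% confidence interval at 11 of the 28 intervals.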

Other observations

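Upstream of Myh2, the myosin gene without an interval, the table has a stretch of intervals that was singled out after its values were seen. Between Myh3 and Myh2, over 68.7 kb, lie 13 intervals in 10 groups that do not overlap. Of these 13, 11 are listed by the authors for H2A.Z dKO only (43.4% over the table). However, Peak_24748, Peak_24749 and Peak_24751 among them overlap Peak_24750, which is listed for CTL only. A positive log2 fold change was seen in 11 of the 13 (52.5% over the table), with a median of 0.30. None of the 13 had an adjusted p under 0.05 and 3 had an unadjusted p under 0.05 (edgeR), where the background is 4.95%. The nearest to Myh2 is Peak_24757 (chr11:66966820-66966950), 17.6 kb upstream of its start, which held 7.04, 5.84 and 7.08 CPM in CTL and 10.7, 12.6 and 10.98 in H2A.Z dKO. The groups did not overlap, with a log2 fold change of 0.77 (SE 0.22, adjusted p = 0.972 from edgeR), and it ran from 0.69 to 0.83 with single libraries left out. Over the alternatives its adjusted p was 0.43 or more. The other pair with an unadjusted p under 0.05, Peak_24748 and Peak_24749, overlap each other in an exon of 2310065F04Rik, at 0.50 (SE 0.19) and 0.39 (SE 0.16). From Myh2 to Myh13, which spans the remaining sarcomeric myosin genes of the cluster over 201 kb, there were 3 intervals. Since the stretch was picked for its values, these counts are a description.

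In the list of endothelial markers, 22 of 27 intervals had a negative log2 fold change and the median was -0.35, with 5 lower and 0 higher at an unadjusted p under 0.05 (backgrounds 2.31% and 2.64%) and 0 at an adjusted p under 0.05 (edgeR). Summed, they held 280 to 318 CPM in CTL and 247 to 268 in H2A.Z dKO, ranges that did not overlap. Of the 47 muscle fibre marker intervals, 4 had higher values at an unadjusted p under 0.05 and 0 had lower ones (backgrounds 2.64% and 2.31%), with a median log2 fold change of 0.06. Median log2 fold changes were 0.10 over 19 fibroblast, -0.09 over 8 macrophage, 0.22 over 5 satellite cell, -0.02 over 2 Schwann cell and -0.21 over 7 smooth muscle and pericyte intervals. Of these, 1 fibroblast interval was higher and 1 macrophage and 1 smooth muscle and pericyte interval lower at an unadjusted p under 0.05, against the same backgrounds. The number of macrophage intervals within 1 kb of a TSS of their marker gene was 0. Summed satellite cell intervals held 51.9 to 76.2 CPM in CTL and 76.7 to 77.3 in H2A.Z dKO, and all 5 had a positive log2 fold change. These ranges did not overlap either, in the opposite direction to the endothelial list. However, the gap rests on 76.2 CPM in CTL replicate 1 against 76.7 in H2A.Z dKO replicate 1. It is smaller than the effect of the scaling factors of these libraries (0.998 and 0.971). Only 2 of the 5, both of Cdh15, lie within 1 kb of a TSS of their marker gene. Those of Myf5 and Pax7 lie farther away, and whether the sum reflects satellite cells was not tested.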
